A study of Mus musculus with 30 samples.

Results

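The response of wild-type (WT) dendritic cells to ovalbumin (OVA), the egg-white protein used as a model antigen, was described after 4 h by setting 3 libraries labelled OVA protein for 4 h against 3 libraries of cells left without treatment. Mouse bone marrow cells had been kept for 6 to 7 days with 200 ng/ml of FLT3L, a growth factor that yields plasmacytoid and conventional dendritic cells together. These 6 libraries of 30 were chosen by their titles, with no measured value used, and all genes of the deposited count table were examined. Of 25611 gene rows, 14808 passed the filter on low counts and were tested. The WT cells given OVA for 30 min (3 libraries) and Rubcn knockout (KO) cells, untreated or given OVA for 4 h (3 libraries each), serve below as comparisons. The labels describe all cells as FLT3L-derived dendritic cells and give the genotypes as Rubcn WT and Rubcn KO. They name neither the dose of OVA nor the strain, sex or age of the mice, and they give a single untreated group for both times, so exposure to OVA and handling over 4 h cannot be told apart. Nothing states that the libraries came from separate animals or cultures, so p-values measure a spread between libraries, which may be technical. That spread was estimated within the 10 groups of all 30 libraries.

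Dendritic cells take up proteins, cut them into peptides and show them on MHC class II, or by cross-presentation on MHC class I, to T cells. When their pattern-recognition receptors are engaged, NF-kB and mitogen-activated kinases turn on cytokine, chemokine and feedback genes within the hour, and type I interferon then acts back on the cells through its receptor to raise a later set of interferon-stimulated genes. Maturation also raises co-stimulatory molecules such as CD40 and changes the uptake receptors on the surface.

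The 6 libraries held 42.4M to 51.6M counts each, so depth was nearly even. Levels are counts per 1000000 (CPM) on library sizes scaled with TMM factors of 1.03 to 1.05. A gene was called when its adjusted p (FDR, edgeR's quasi-likelihood F test with Benjamini-Hochberg adjustment over all 14808 genes) was under 0.05. The first principal component of these libraries held 66.1% of the variance and placed the OVA libraries at -14.2 to -13.8 and the untreated ones at 12.3 to 15.3. The second held 15.5% and set OVA 4 h replicate 3, at -13.2, apart from replicates 1 and 2, at 7.03 and 5.64.

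That library differed in 2 ways that bear on the results. It had some stromal, endothelial and bone genes at several times their level in replicates 1 and 2, though not all: Col1a1, the main collagen chain of bone and fibroblasts, stood at 158, 157 and 146 CPM in replicates 1, 2 and 3, and the endothelial receptor gene Kdr was even across them. Igfbp3, a secreted binding protein of insulin-like growth factors, stood at 0.296, 0.324 and 16.5 CPM in OVA replicates 1, 2 and 3 and at 0.178, 0.237 and 0.122 CPM in untreated cells. Sfrp4, a secreted Wnt inhibitor, stood at 1.35, 1.27 and 25.7 CPM against 1.25, 1.16 and 0.959 CPM. Among genes picked after their values were seen, Ctsk, the collagen-degrading protease of osteoclasts, stood at 8.64, 8.27 and 53.9 CPM and the endothelial sialomucin gene Emcn at 0, 0 and 1.5 CPM at 4 h, with Emcn at 0 counts in all 3 untreated libraries. The same library also had lower levels than its 2 partners of many genes that OVA raised. Of the 288 genes called at least 2-fold higher, replicate 3 was at least 2-fold above both partners for 61 and at least 1.2-fold below both for 64, against 2 and 36 for replicate 1 and 0 and 29 for replicate 2. Without replicate 3, 206 of the 288 stayed called higher. Among the 82 that did not were Igfbp3 (log2 0.79 without it) and Sfrp4 (log2 0.22 without it), and both rest on this 1 library. In the full comparison both were among the 12 largest rises of genes of at least 5 CPM whose libraries did not overlap between groups. Each gene list below is given with replicate 3 and, where a count changes, without it.

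The cells carried the markers of the labelled cell type. Summed over its 12 genes, the plasmacytoid dendritic cell list stood at 2889 to 2890.4 CPM in untreated libraries and 2867 to 2877 CPM at 4 h, and 1 of 12 was higher and 0 were lower. Of all genes tested, 11.9% were called higher and 11.7% lower, and the counts of called markers are to be read against these shares. Siglech, a lectin receptor of plasmacytoid cells, stood at 808, 805 and 787 CPM in the untreated libraries and 739, 703 and 726 CPM at 4 h (log2 -0.15, FDR 0.0621), and it was called lower under 6 of the 14 other settings tried. Of 10 markers of conventional dendritic cells type 1, the cross-presenting lineage, 2 were higher and 4 lower, and of 10 markers of type 2, 4 were higher and 4 lower (2 and 3, and 4 and 3, without replicate 3). The largest rise of the type 1 list was that of Ifi205 (log2 0.56). That of the type 2 list was Tnfrsf1b (log2 0.71), which is also described with the feedback regulators below. Flt3, the receptor for the growth factor in the culture, stood at 549, 582 and 569 CPM in the untreated libraries and 484, 484 and 507 CPM at 4 h (log2 -0.21, FDR 4.57e-05), and 2 of 7 shared dendritic cell markers fell while 1 rose. Monocyte and macrophage markers moved with the response: 7 of 12 were higher and 0 lower, and their sum went from 3314 to 3615 CPM in untreated libraries to 4069 to 4410.0 CPM at 4 h. Lyz2, the lysozyme of myeloid cells, rose from 2167, 2153 and 2004 to 2529.9, 2559.9 and 2402 CPM, and Adgre1, which encodes F4/80, from 235, 231 and 211 to 366, 385 and 331 CPM. In bulk RNA, more cells of a type and more RNA of its genes per cell cannot be told apart, and the part of these cells in the results below was not tested.

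Markers of cell types other than dendritic cells, monocytes and macrophages were measured as sums over each list. Among these lists the stromal and endothelial sum was the highest, though below the monocyte and macrophage sum above. Neutrophil markers summed to 137 to 156 CPM untreated and 150.1 to 163 CPM at 4 h (1 of 10 higher), and the granulocyte marker Ly6g stood at or under 0.312 CPM in each of the 6 libraries. Elane and Retnlg, also of neutrophils, Cd3e, Cd3g and Gzmb of T and natural killer cells, and Pax5 and Vpreb1 of B cells were under 1 CPM in all 6. Basophil and mast cell markers summed to 21.5 to 27.8 and 21.9 to 26.4 CPM (0 of 6 called), B cell markers to 22.6 to 25.2 and 22.4 to 25.1 CPM (0 of 8 called). T and natural killer cell markers summed to 21.8 to 23.6 and 26.5 to 28.1 CPM, nearly all of it Cd4, which is also a dendritic cell gene and was the 1 of 7 called higher. Erythroid and megakaryocyte markers summed to 21.2 to 26.0 and 28.6 to 35.5 CPM, with 2 of 4 higher, among them the platelet chemokine gene Pf4. Stromal and endothelial markers summed to 627 to 699 CPM untreated and to 666, 671 and 780.3 CPM in OVA replicates 1, 2 and 3. In that list 4 of 10 were higher and 1 lower, and without replicate 3 only Kdr was higher and Pecam1 lower. The Pecam1 call was lost under 5 of 14 other settings. Kdr, picked after its values were seen and also expressed by plasmacytoid cells, stood at 28, 26.2 and 29.9 CPM in the untreated libraries and 58.7, 57.2 and 60.2 CPM at 4 h.

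At 4 h, 3484 genes (23.5% of those tested) were called, 1757 higher (11.9%) and 1727 lower (11.7%), and the median log2 fold change of all genes tested was -0.00. The counts of list members called at 4 h below are to be read against these shares. The 2 directions differed in size. At least 2-fold changes went up for 288 genes (1.94%) and down for 19, and at least 4-fold changes went up for 85 and down for 0. The 85 include genes that lost their call without replicate 3, among them Igfbp3 and Sfrp4, and this count was not repeated without that library. The 19 genes with 2-fold falls had untreated means of at most 2.57 CPM. One was Tnfsf13b, which encodes the B-cell survival factor BAFF and went from 1.07, 0.884 and 1.2 to 0.616, 0.389 and 0.426 CPM (log2 -1.15, FDR 6.39e-04; picked after its values were seen). Of the genes on the lists used below, 13 did not pass the filter on low counts (Il33, Rab3b, Ass1, 5 erythroid genes, 2 mast cell genes, and Cd3d, Trac and Ncr1 of lymphocytes). Without replicate 3, 2958 genes were called, 227 of them at least 2-fold higher and 23 at least 2-fold lower.

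**Figure D1:**
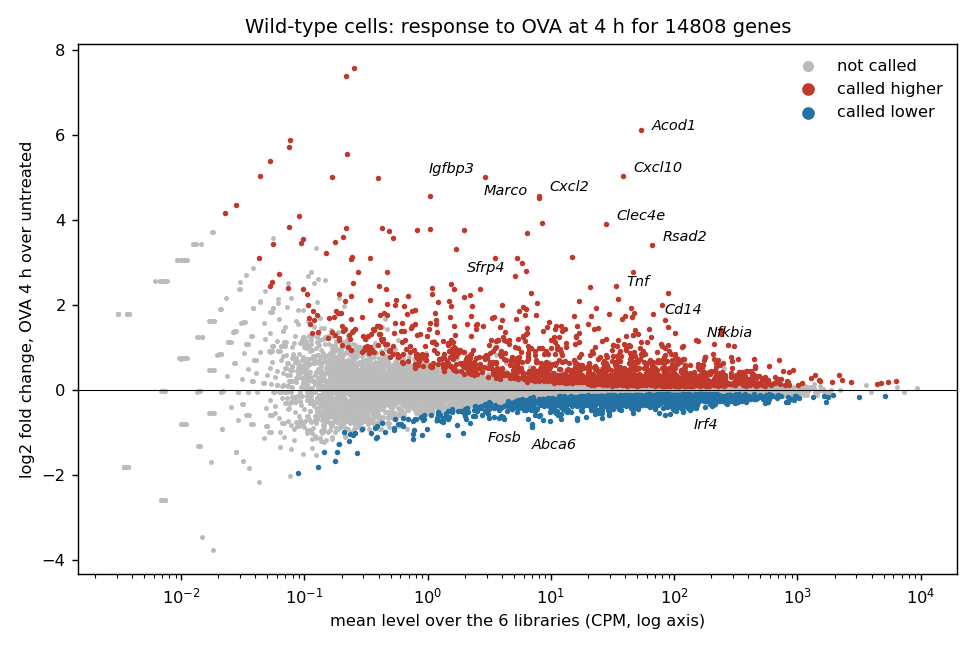
Each point is 1 of the 14808 genes tested, at its mean level over the 6 libraries (CPM, log axis) and its log2 fold change of OVA 4 h over untreated cells, coloured by whether it was called higher, lower or not. Among called genes of at least 5 CPM in the higher group with no overlap, rises reach log2 6.12 (Acod1) and falls reach log2 -0.87 (Abca6); Igfbp3 and Sfrp4 are high in replicate 3 alone.

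The largest rise among genes of at least 5 CPM whose libraries did not overlap between groups was that of Acod1, the enzyme that makes itaconate from cis-aconitate in activated myeloid cells. It went from 1.76, 1.49 and 1.35 CPM to 119, 117 and 83.5 CPM, a 69.7-fold rise (log2 6.12 ± 0.44 (SE), FDR 1.36e-11). Its 3 OVA libraries all lay far above the untreated ones, with replicate 3 the lowest. At 30 min it already stood at 11, 10.2 and 10.3 CPM, between the 2 groups.

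Next came chemokines for T cells and neutrophils. Cxcl10, a ligand of CXCR3 that attracts activated T cells, went from 2.32, 2.16 and 2.33 to 84.8, 78.6 and 59.1 CPM (log2 5.03 ± 0.54 (SE), FDR 4.24e-08). Cxcl9, another CXCR3 ligand, went from 0.913, 1.14 and 1.04 to 20.7, 15.6 and 11.5 CPM (log2 3.93 ± 0.71 (SE), FDR 1.20e-04), and at 30 min it was still at 0.998, 0.918 and 1.32 CPM. Cxcl2, a neutrophil attractant, followed a different course. It went from 0.957, 0.367 and 0.612 CPM to 22.1, 19.9 and 18.4 CPM by 30 min and to 17.1, 17 and 11.7 CPM at 4 h, so that its 4 h level was below its 30 min level (log2 -0.41, FDR 0.0128). Ccl4, a chemokine for monocytes and T cells, went from 3.18, 3.15 and 2.76 to 29.4, 29.8 and 20.9 CPM (log2 3.14 ± 0.21 (SE), FDR 2.13e-12).

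Receptors were 4 of the 12 largest rises. Marco, a scavenger receptor for bacteria and particles, went from 0.623, 0.776 and 0.592 CPM to 16.7, 17.3 and 11.6 CPM (log2 4.51 ± 0.26 (SE), FDR 1.37e-13). It stood at 0.707, 0.693 and 0.554 CPM at 30 min, no higher than in untreated cells. Clec4e, the lectin receptor Mincle, went from 3.74, 3.36 and 3.29 to 59.3, 54.1 and 42.6 CPM (log2 3.91 ± 0.23 (SE), FDR 2.67e-13). Gpr84, a receptor for medium-chain fatty acids, went from 1.07, 0.755 and 0.918 to 12.7, 13.6 and 9.41 CPM, and Fpr1, the formyl peptide receptor, from 0.712, 0.712 and 0.776 to 6.73, 6.71 and 5.59 CPM (log2 3.69 and 3.10). Rsad2, the antiviral enzyme viperin, went from 12.2, 9.75 and 12 to 133, 126 and 103 CPM (log2 3.42 ± 0.44 (SE), FDR 9.29e-07). In each of these 5 genes the lowest OVA library lay above the highest untreated one, as groups lay apart in either direction for 37% of all genes. Without replicate 3 the log2 rises of the 10 genes named in these 3 paragraphs as large rises, from Acod1 (6.27) to Fpr1 (3.19), were all slightly larger than with it.

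**Figure D2:**
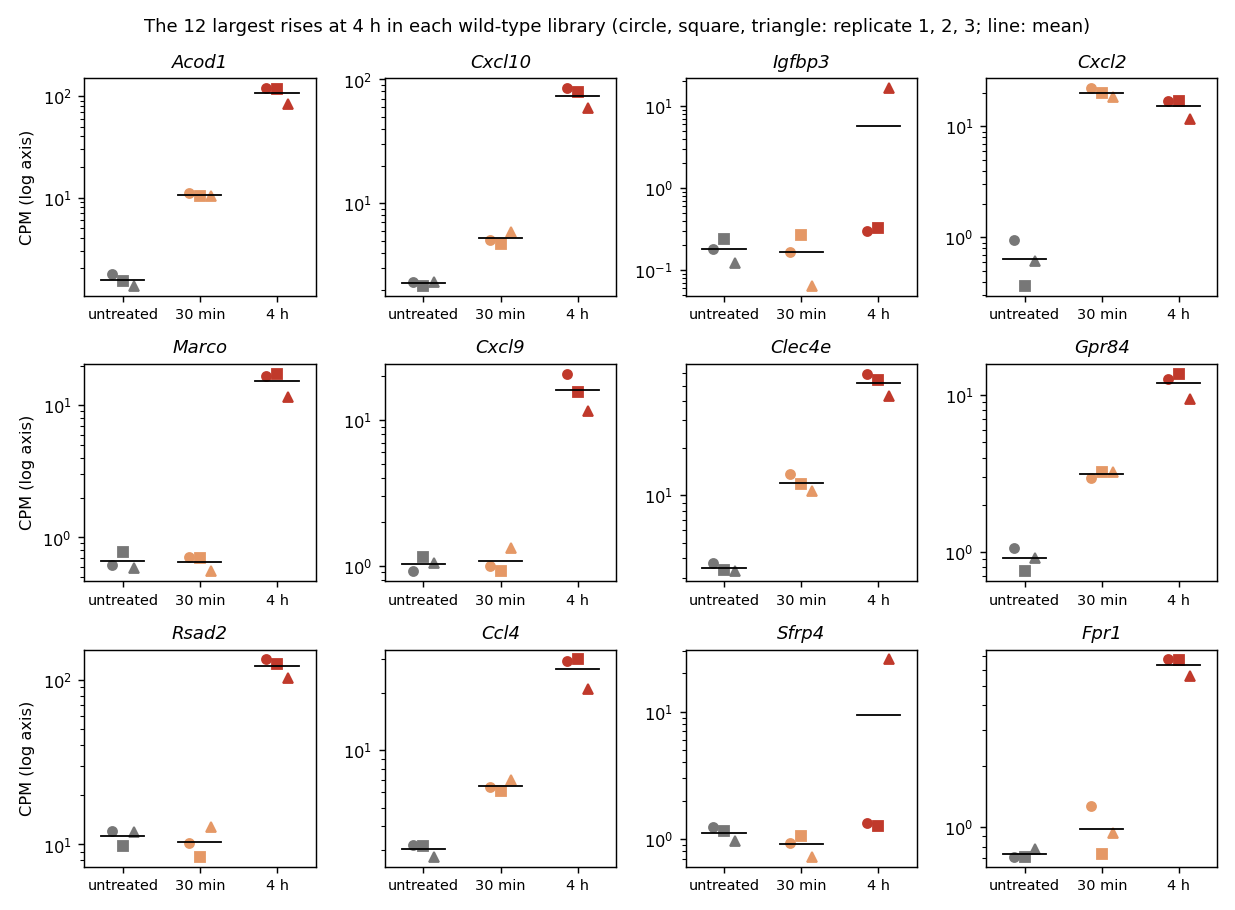
Each panel shows 1 of the 12 genes with the largest rises, with CPM (log axis) in the 3 untreated, 3 OVA 30 min and 3 OVA 4 h WT libraries; symbols mark the replicate and the line the mean. Cxcl2 is at its highest at 30 min, Marco, Cxcl9 and Rsad2 stay at the untreated level until 4 h, and Igfbp3 and Sfrp4 are high in OVA 4 h replicate 3 only.

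The largest falls among genes of at least 5 CPM were under 2-fold. Abca6, a lipid transporter, went from 9.53, 9.27 and 8.35 CPM to 5.25, 4.6 and 5.02 CPM (log2 -0.87 ± 0.11 (SE), FDR 8.06e-07), and the libraries of the groups did not overlap. Fosb, an AP-1 subunit, went from 8.28, 9.85 and 8.61 CPM to 3.93, 3.65 and 3.49 CPM at 30 min and 5.97, 4.9 and 4.61 CPM at 4 h, so its lowest level was the earlier one (4 h over 30 min, log2 0.48, FDR 0.00489). Il1rl1, the IL-33 receptor ST2, went from 20.8, 19.9 and 19.6 to 13.7, 11.3 and 12 CPM (log2 -0.71 ± 0.07 (SE), FDR 7.07e-09). Itgae, the integrin CD103 of cross-presenting dendritic cells, went from 23.1, 23.8 and 23.5 to 15, 14.3 and 16 CPM (log2 -0.63 ± 0.09 (SE), FDR 1.07e-05). Tnfsf14, the cytokine LIGHT, and Map2k6, a p38 kinase activator, fell by 0.71 and 0.61 on the log2 scale. The other 6 of the 12 largest falls were Abcg3, Kif1a, Slc26a11, Slco2b1, Card10 and Vipr1, at log2 -0.73 to -0.65.

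The gene lists that moved furthest were chemokines, interferon-stimulated genes and NF-kB feedback genes. Of 19 chemokines tested, 16 were higher and 0 lower (background 11.9% and 11.7%), with a median log2 fold change of 1.36 against -0.00 for all genes. At 30 min 5 had been called higher over untreated cells (background 5.51%). At 4 h, 15 of the 19 were higher than at 30 min (background 14.9%). Without replicate 3, 17 were higher. Ccl9, a monocyte chemokine, rose from 143, 139 and 129.7 to 372, 378 and 283 CPM, and Cxcl16, the ligand of CXCR6, from 73.7, 78 and 78.1 to 165, 164 and 144 CPM. Ccl5, picked after its values were seen, rose from 110.0, 115 and 121 to 159.7, 158 and 140.2 CPM. Cxcl5 and Ccl17, both under 1 CPM, were not called; Cxcl5 was called higher without replicate 3.

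Cytokine genes moved with them to a smaller extent: 17 of 29 tested were higher and 1 lower, with a median of 0.52 (16 and 1 without replicate 3). Tnf went from 9.73, 11.5 and 10.2 to 61.6, 60.9 and 48.5 CPM, a 5.44-fold rise (log2 2.44 ± 0.10 (SE), FDR 1.16e-16). It was already at 56.1, 55.2 and 51.1 CPM at 30 min, and its levels at the 2 times were not called different (FDR 0.59). Il1b went from 22.8, 25.6 and 23.6 to 67.9, 57.8 and 47.9 CPM (log2 1.27 ± 0.15 (SE), FDR 3.55e-07), and the gene of its natural antagonist, Il1rn, from 16.4, 14.3 and 14.4 to 29.4, 30.2 and 32 CPM (log2 1.02 ± 0.12 (SE), FDR 2.16e-07). Il27, a subunit of a cytokine that acts on T cells, stood at 0.512, 0.539 and 0.531 CPM in the untreated libraries and 1.57, 1.58 and 1.56 CPM at 4 h. Il12b, which encodes the p40 subunit of IL-12 and IL-23, stood at 19.1, 19.1 and 17.3 CPM in the untreated libraries and 23.8, 21.1 and 20.3 CPM at 4 h and was not called (log2 0.23, FDR 0.624), but it was called higher in a fit of the compared groups alone, with and without the replicate block. Il6, picked after its values were seen, stood at 0.267, 0.28 and 0.184 CPM in the untreated libraries and 1.35, 1.3 and 0.815 CPM at 4 h, and its call (FDR 0.0428) was lost under 6 of 14 other settings, among them leaving out any 1 of 5 of the 6 libraries.

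Inhibitors of NF-kB were among the genes that rose. Of 22 NF-kB subunits, inhibitors and feedback genes, 18 were higher and 0 lower, with a median of 0.64. Nfkbia, which encodes IkBa, the inhibitor that holds NF-kB in the cytoplasm and is remade after activation, went from 88.8, 96 and 92.8 to 147, 141 and 148 CPM at 30 min and 218, 217 and 192 CPM at 4 h (log2 1.17 ± 0.05 (SE), FDR 4.80e-16). Tnfaip3, the deubiquitinase A20, went from 57.6, 57.8 and 58.8 to 129.6, 121 and 113 CPM (log2 1.06), and its partner Tnip1 from 65.5, 66.6 and 70.9 to 126, 127 and 113 CPM (log2 0.85). Relb, the subunit of the non-canonical pathway, went from 70.2, 73.9 and 74.1 to 136, 134 and 124 CPM, whereas Nfkb1 stood at 502, 524 and 546 CPM in the untreated libraries and 552, 549 and 545 CPM at 4 h and was not called (log2 0.07, FDR 0.235).

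The promoters of 4 of these genes are shown because their 200 bases before the RefSeq transcription start (build GRCm38.p6) hold the letters of an NF-kB site (GGG and TTCC with any 3 bases between them, or the reverse complement), which stand in capitals. In Cxcl2, 2 of 3 matches overlap. They lie at chr5:92348890-92349089 (minus strand), chr5:90903699-90903898 (plus strand), chr12:55492648-55492847 (minus strand) and chr1:120505025-120505224 (minus strand), each printed 5′ to 3′ along the gene. The start of Acod1, at chr14:103046812-103047011 (plus strand), is set beside them as the largest rise; this pattern is not in its window.
Cxcl10: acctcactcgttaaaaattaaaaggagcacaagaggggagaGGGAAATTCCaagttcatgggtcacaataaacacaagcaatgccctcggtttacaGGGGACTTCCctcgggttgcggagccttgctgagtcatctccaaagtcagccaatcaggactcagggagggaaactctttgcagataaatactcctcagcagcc
Cxcl2: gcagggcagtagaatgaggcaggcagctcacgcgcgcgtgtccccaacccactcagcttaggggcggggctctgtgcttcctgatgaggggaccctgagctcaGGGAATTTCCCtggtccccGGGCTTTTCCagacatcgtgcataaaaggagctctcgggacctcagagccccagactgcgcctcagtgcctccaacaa
Nfkbia: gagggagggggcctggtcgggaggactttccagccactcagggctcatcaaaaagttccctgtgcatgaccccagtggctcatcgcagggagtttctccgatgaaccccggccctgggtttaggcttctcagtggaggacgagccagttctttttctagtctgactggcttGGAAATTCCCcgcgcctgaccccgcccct
Marco: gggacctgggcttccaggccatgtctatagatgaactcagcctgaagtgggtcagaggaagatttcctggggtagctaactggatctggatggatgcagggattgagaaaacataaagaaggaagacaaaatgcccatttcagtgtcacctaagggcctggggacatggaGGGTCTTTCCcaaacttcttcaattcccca
Acod1: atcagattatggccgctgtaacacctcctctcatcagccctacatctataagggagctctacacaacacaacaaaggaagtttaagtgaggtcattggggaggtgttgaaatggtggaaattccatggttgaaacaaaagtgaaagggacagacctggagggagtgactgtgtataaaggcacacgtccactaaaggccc
In windows from 250 bases before to 50 after the start, one per gene and available for 11596 of the 14808 genes, the letters occurred in 6.24% of all genes, in 12.7% of the genes called at least 2-fold higher and in 4.90% of those called lower. They occurred in 5 of 11 chemokines and 7 of 19 NF-kB genes with a window. The AP-1 letters TGANTCA occurred in 5.22% of all genes and 12.7% of the 2-fold rises. These are matches of letters, not measured binding.

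Interferon-stimulated genes rose almost as a whole. Of 42 tested, 39 were higher and 0 lower, with and without replicate 3, and the median was 0.94. Their timing set them apart from Tnf and Cxcl2. At 30 min, 0 of 42 were higher than in untreated cells (background 5.51% of all genes) and the median was -0.16. At 4 h, 41 of 42 were higher than at 30 min, against a background of 14.9% of all genes. Rsad2 is described above. Parp14, a mono-ADP-ribosyltransferase, rose from 181, 168 and 177 to 381, 357 and 364 CPM (log2 1.07 ± 0.14 (SE), FDR 1.35e-06). Rtp4, a membrane-associated antiviral gene, rose from 27.6, 23.8 and 24.1 to 52.7, 55.3 and 53 CPM, and the immunity-related GTPase gene Irgm2 from 32.1, 30.7 and 31.1 to 55.3, 56.8 and 58.5 CPM. Ifit3b, a near copy of Ifit3 whose counts are uncertain for that reason, rose from 2.45, 2.09 and 2.41 to 12.1, 11.3 and 10.7 CPM. Isg15, a ubiquitin-like modifier, and Ifit1, an RNA-binding antiviral protein, were picked after their values were seen. Isg15 rose from 21.7, 19.5 and 21.7 to 74.8, 76.7 and 69 CPM and Ifit1 from 12.4, 11 and 11.6 to 87.5, 82.2 and 71.4 CPM (log2 1.81 and 2.78). Ly6e and Bst2, of higher level in untreated cells, were not called: Bst2, the tetherin gene that plasmacytoid cells also express, stood at 458, 479 and 467 CPM in the untreated libraries and 472, 508 and 494 CPM at 4 h (log2 0.07, FDR 0.303). Ly6e was called higher under 3 of 14 other settings.

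The starts of 3 interferon-stimulated genes are shown with the letters of the interferon-stimulated response element in capitals (TTTC and TTTC with any 2 bases between them, or the reverse complement), through which interferon signalling acts on its target genes. The windows are the 200 bases before the start at chr12:26456453-26456652 (minus strand), chr4:156200819-156201018 (minus strand) and chr19:34640689-34640888 (plus strand). In Isg15, 3 matches overlap.
Rsad2: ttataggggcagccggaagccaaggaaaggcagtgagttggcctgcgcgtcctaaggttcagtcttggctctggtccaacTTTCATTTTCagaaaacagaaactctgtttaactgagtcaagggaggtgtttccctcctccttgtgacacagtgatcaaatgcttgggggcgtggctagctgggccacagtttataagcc
Isg15: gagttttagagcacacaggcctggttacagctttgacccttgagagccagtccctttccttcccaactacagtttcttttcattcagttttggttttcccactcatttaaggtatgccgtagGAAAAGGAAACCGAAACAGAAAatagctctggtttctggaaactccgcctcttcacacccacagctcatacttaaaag
Ifit1: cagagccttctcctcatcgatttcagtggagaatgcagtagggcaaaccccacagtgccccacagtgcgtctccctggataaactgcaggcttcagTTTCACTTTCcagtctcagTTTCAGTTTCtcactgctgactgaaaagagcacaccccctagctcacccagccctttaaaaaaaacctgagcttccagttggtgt
In the longer windows the element's letters occurred in 3.31% of all genes, in 20 of 31 interferon-stimulated genes, in 12.7% of the 2-fold rises and in 1.94% of the genes called lower. Of the 197 2-fold rises that were also 2-fold without replicate 3, 159 had a window and 15.1% of these held it.

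The upstream interferon pathway changed less uniformly. Of 22 interferon genes, receptors, kinases and factors, 7 were higher and 4 lower, with a median of 0.04 (6 and 3 without replicate 3). Stat2, a factor of type I interferon signalling, rose from 289, 278 and 301 to 380.1, 386 and 391 CPM (log2 0.42 ± 0.07 (SE), FDR 2.34e-05). Irf1 rose from 185, 195 and 192 to 227, 225 and 229 CPM (log2 0.25). Irf7, the factor that amplifies interferon production and was picked after its values were seen, rose from 158, 148 and 167 to 249.5, 266 and 268 CPM (log2 0.73 ± 0.15 (SE), FDR 4.90e-04). Irf4, a factor of type 2 conventional dendritic cells, fell from 135, 138 and 137 to 96.8, 92 and 103 CPM (log2 -0.49 ± 0.05 (SE), FDR 5.27e-08), and Ifngr1, a chain of the interferon-gamma receptor, from 357, 365 and 345 to 300.0, 289.7 and 284 CPM (log2 -0.29 ± 0.04 (SE), FDR 8.56e-07). Irf8, which specifies plasmacytoid and type 1 conventional cells, stood at 2164, 2195 and 2284 CPM in the untreated libraries and 2190.0, 2254 and 2191 CPM at 4 h and was not called. Ifnb1, also picked after its values were seen, had 0 counts in all 3 untreated libraries and 6, 11 and 4 counts at 4 h. Set against a floor of 3 counts over the untreated group, this put a lower bound of 6.81-fold on the rise, with the 4 h counts taken as they stand. The floor covers counting error in the untreated group only. Like all floors and intervals here it rests on counts summed over the libraries of a group, so it covers no spread between libraries. No molecular identifiers show which reads came from 1 molecule, so error from that is not covered either.

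**Figure D3:**
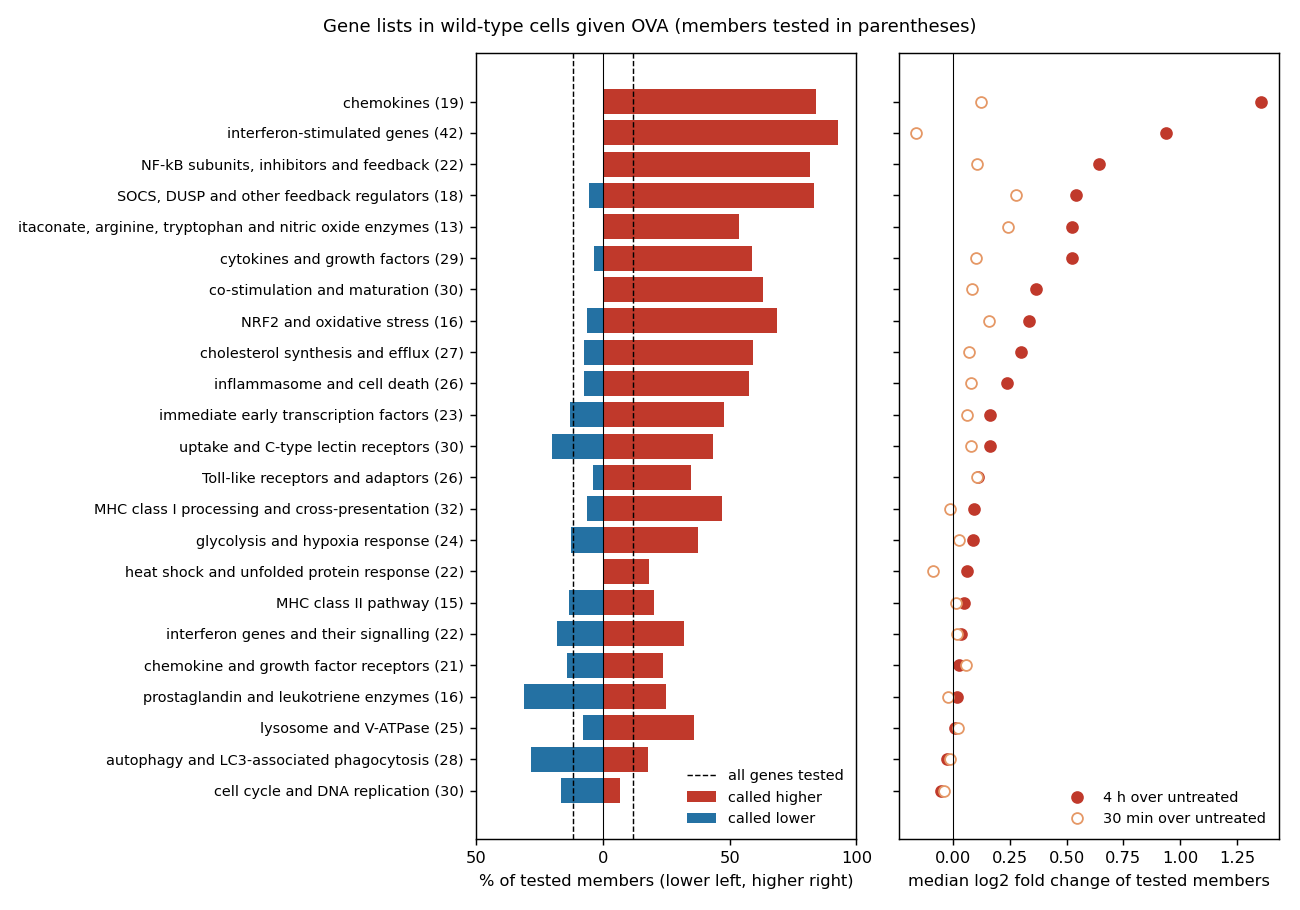
The left panel gives, for each of 23 gene lists, the percent of its tested members called higher (red, right) and lower (blue, left) at 4 h, with dashed lines at 11.9% and 11.7% for all genes tested. The right panel gives the median log2 fold change of each list over untreated cells at 4 h (filled) and 30 min (open); interferon-stimulated genes stand at 0.94 at 4 h and -0.16 at 30 min.

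Feedback regulators of cytokine and kinase signalling were largely higher: 15 of 18 rose and 1 fell, with a median of 0.54. Socs3, which blocks STAT3 signalling, went from 14.3, 16.7 and 15.3 to 29.2, 28.5 and 27.5 CPM and had reached 30.3, 28.3 and 25.2 CPM by 30 min. The phosphatase gene Dusp2 rose from 19.1, 20.8 and 21.8 to 46.7, 44.8 and 37.6 CPM (log2 1.06 ± 0.09 (SE), FDR 1.63e-10), and Tnfrsf1b, the second TNF receptor, from 175, 170.2 and 174 to 287, 302 and 260.4 CPM (log2 0.71 ± 0.06 (SE), FDR 3.08e-10). Of 23 immediate early transcription factors, 11 were higher and 3 lower at 4 h (11 and 2 without replicate 3), with a median of 0.16. Junb rose from 171, 176 and 169 to 282, 276 and 246 CPM and Maff from 7.46, 8.15 and 8.33 to 16.5, 16.6 and 13.9 CPM, while Klf4 fell from 124, 126 and 129 to 104, 101 and 101 CPM and Myc, at 77.1, 83.2 and 83.2 CPM with OVA, was not called.

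Of 26 Toll-like receptors and adaptors, 9 were higher (34.6%, against 11.9% of all genes) and 1 lower, with a median of 0.11. With replicate 3 left out, 8 were higher. Cd14, the co-receptor for lipopolysaccharide, went from 31.5, 30.4 and 28.8 to 108, 116 and 90.5 CPM, a 3.47-fold rise (log2 1.79 ± 0.08 (SE), FDR 3.56e-16). Tlr2 went from 60.9, 61.6 and 59.2 to 108, 106 and 98.6 CPM and its partner Tlr1 from 31.2, 34.3 and 32.3 to 55.3, 56.2 and 51.7 CPM (log2 0.78 and 0.74). Unc93b1, which carries nucleic acid receptors to endosomes, stood at 888, 927 and 921 CPM in the untreated libraries and 874, 891 and 891 CPM at 4 h and was not called (FDR 0.397).

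Of 30 co-stimulation and maturation genes, 19 were higher and 0 lower, with a median of 0.37 (18 and 0 without replicate 3). Icam1, an adhesion molecule of the T cell contact, went from 93.2, 97.1 and 100.4 to 226, 220.2 and 198 CPM (log2 1.15 ± 0.08 (SE), FDR 3.99e-12). Cd83, a maturation marker, went from 135, 131 and 132 to 246, 213 and 192 CPM, and Marcksl1, an actin-binding protein gene, from 126, 129.7 and 133 to 379, 352 and 306 CPM (log2 0.71 and 1.41). The following were picked after their values were seen. Cd40, the receptor through which helper T cells license dendritic cells, went from 17.1, 19.3 and 19.2 to 78.7, 73.8 and 59.5 CPM (log2 1.93 ± 0.26 (SE), FDR 2.07e-06), with 16.7, 17.4 and 19.6 CPM at 30 min. Cd274, which encodes the checkpoint ligand PD-L1, went from 14, 12.4 and 12.2 to 36.2, 35.6 and 34.2 CPM (log2 1.46 ± 0.18 (SE), FDR 3.92e-07). The B7 genes changed little in comparison: Cd86 rose from 73.6, 73.8 and 71.3 to 96.9, 88.2 and 88.7 CPM and Cd80 from 9.97, 10.5 and 10.1 to 13.9, 12.1 and 13.4 CPM (log2 0.32 and 0.36). Ccr7, the receptor that guides mature cells to lymph nodes, stood at 137, 143 and 144 CPM in the untreated libraries and 166, 160.2 and 148 CPM at 4 h and was not called (log2 0.16, FDR 0.179), but it was called higher in a fit of the compared groups alone, with and without the replicate block.

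**Figure D4:**
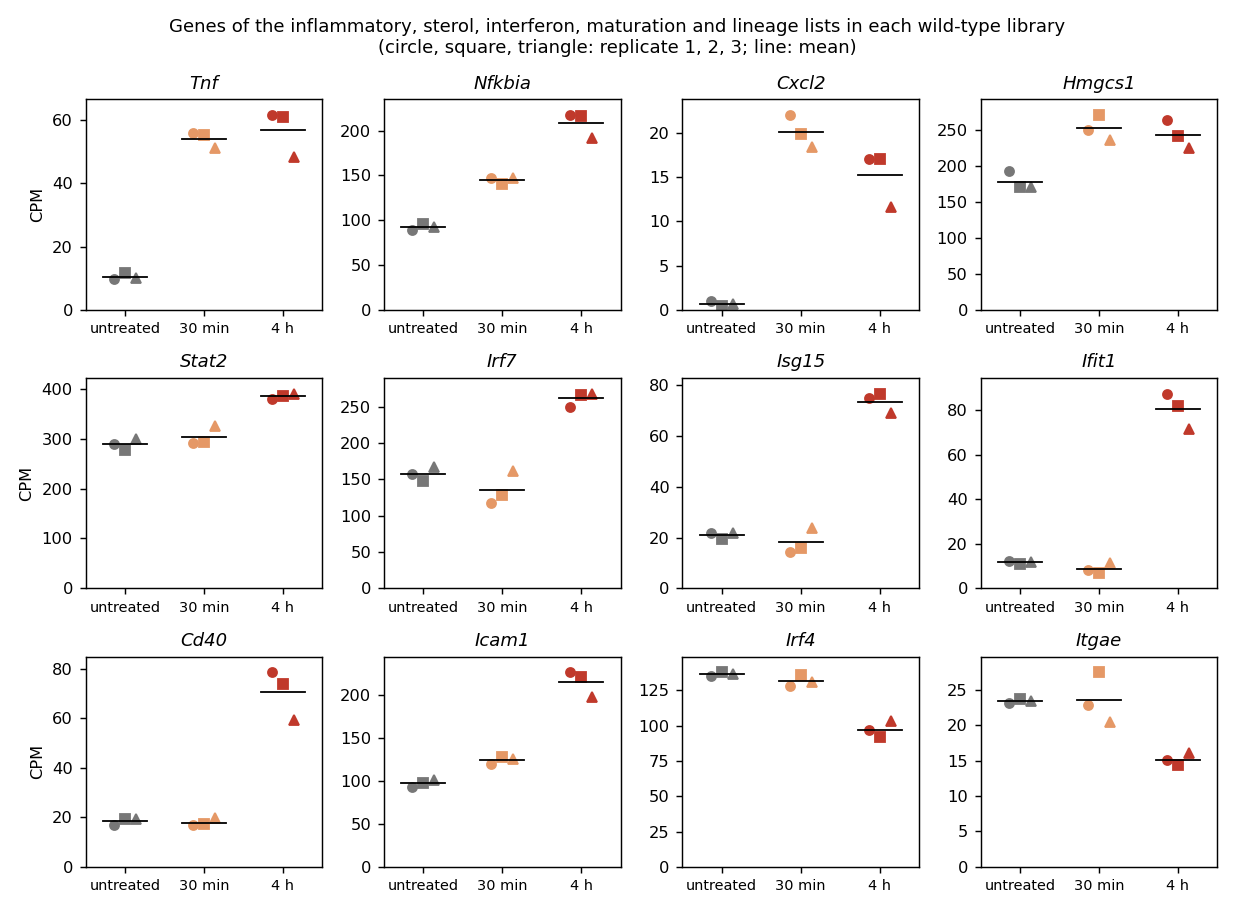
CPM (axis from 0) of 12 genes in the 3 untreated, 3 OVA 30 min and 3 OVA 4 h WT libraries, with symbols for the replicate and a line at the mean. Tnf, Cxcl2 and Hmgcs1 are up by 30 min, Stat2, Irf7, Isg15, Ifit1 and Cd40 rise by 4 h only, and Irf4 and Itgae are lower at 4 h.

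Genes of antigen processing changed by small amounts. Of 32 genes of MHC class I processing and cross-presentation, 15 were higher and 2 lower, and the median was 0.09 (14 and 1 without replicate 3). The class I heavy chain genes H2-K1 and H2-D1, whose sequences are alike enough that shared reads make each count uncertain, rose from 1141, 1163 and 1169 to 1437, 1438 and 1382 CPM and from 411, 426 and 447 to 536, 554 and 532 CPM (log2 0.29 and 0.34). Psme2, a proteasome activator subunit, rose from 225, 234 and 230.3 to 286, 297 and 276 CPM (log2 0.32). Cybb and Cyba, the membrane subunits of the phagosomal NADPH oxidase, rose from 779.9, 702 and 714 to 1042, 997 and 929.7 CPM and from 271, 285 and 294 to 343, 367 and 330.4 CPM (log2 0.43 and 0.29). Wdfy4, required for cross-presentation of cell-associated antigen by type 1 conventional cells, stood at 1638, 1709 and 1865 CPM in the untreated libraries and 1553, 1557 and 1592 CPM at 4 h (log2 -0.15, FDR 0.0353); the call was lost when any 1 of 5 of the 6 libraries was left out, with FDR up to 0.246. Among 15 MHC class II genes, 3 were called higher and 2 lower (3 and 1 without replicate 3). With all libraries the shares were 20% and 13.3%, against 11.9% and 11.7% of all genes. The calls ran from log2 -0.19 for March1, a ubiquitin ligase of class II, to 0.16 for H2-Ab1, a class II chain. Each of these 5 calls (H2-Eb1, Ifi30 and H2-Ob were the others) was lost when at least 1 particular library was left out, with FDR up to 0.394 for March1. Cd74, the invariant chain, stood at 8369, 9292 and 10113 CPM in the untreated libraries and 9347, 9693 and 9731 CPM at 4 h and was not called.

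Uptake receptors moved in both directions, with 13 of 30 higher and 6 lower and a median of 0.16 (12 and 4 without replicate 3). Besides Marco and Clec4e, Clec4d, a lectin that pairs with Mincle, rose from 32.9, 28.3 and 26.4 to 76.7, 75.8 and 66.8 CPM (log2 1.32 ± 0.10 (SE), FDR 9.45e-11). Fcgr2b, the inhibitory receptor for IgG, fell from 119, 124 and 118 to 89.4, 86.5 and 81.6 CPM (log2 -0.49 ± 0.05 (SE), FDR 2.75e-09), and Havcr2, the checkpoint receptor TIM-3, from 92.9, 97.6 and 99.3 to 74, 72 and 77.5 CPM (log2 -0.37 ± 0.04 (SE), FDR 3.44e-08). Cd36 stood at 258, 204 and 165 CPM in the untreated libraries and 313, 332 and 224 CPM at 4 h, overlapped between the groups and was not called (FDR 0.0834), but it was called higher under 4 of 14 other settings, among them leaving out OVA replicate 3. Of 21 chemokine and growth factor receptors, 5 were higher and 3 lower (4 and 3 without replicate 3). With all libraries the shares were 23.8% and 14.3%, against 11.9% and 11.7% of all genes, so the lower share was near the background. Cx3cr1, the fractalkine receptor, rose from 59.6, 65.8 and 66.7 to 81.5, 82.6 and 77.5 CPM, and Gpr183, the oxysterol receptor that positions dendritic cells, fell from 92.4, 91.9 and 91.1 to 80.1, 74.9 and 76.4 CPM (log2 0.33 and -0.25).

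The list of itaconate, arginine, tryptophan and nitric oxide enzymes also held other genes, such as transporter genes and Sod2. Of its 13 genes tested, 7 were higher and 0 lower (6 and 0 without replicate 3). Next to Acod1, the cystine transporter gene Slc7a11 rose from 7.52, 5.82 and 5.59 to 20.6, 19.5 and 13.9 CPM and the arginine transporter gene Slc7a2 from 2.05, 1.27 and 1.37 to 5.66, 5.46 and 4.19 CPM (log2 1.51 and 1.70). Sod2, the mitochondrial superoxide dismutase, rose from 52.8, 50.7 and 49.9 to 96.7, 98 and 89.2 CPM (log2 0.89 ± 0.04 (SE), FDR 1.16e-16). Nos2, the inducible nitric oxide synthase, picked after its values were seen, had 2, 0 and 1 counts in untreated libraries and 37, 29 and 44 at 4 h, a ratio of 35.7 (exact 95% interval from counting error, 11.9 to 176). Odc1 was not called, nor was Kmo, which was called lower under 5 of 14 other settings.

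Of 16 prostaglandin and leukotriene genes, 4 were higher and 5 lower. Ptgs2, the inducible cyclooxygenase COX-2, rose from 1.91, 2.03 and 1.8 to 7.00, 6.39 and 4.7 CPM and the prostaglandin E synthase gene Ptges from 0.401, 0.647 and 0.531 to 2.62, 2.85 and 2.78 CPM (log2 1.64 and 2.38). The constitutive enzyme gene Ptgs1 fell from 6.99, 7.07 and 7.18 to 5.15, 4.77 and 5.3 CPM (log2 -0.48 ± 0.08 (SE), FDR 2.94e-05), and Alox5ap, the partner of 5-lipoxygenase, from 481, 514 and 483 to 404, 437 and 434 CPM (log2 -0.21). In 16 genes of the NRF2 and oxidative stress list, 11 were higher and 1 lower, with a median of 0.34. Txnrd1, thioredoxin reductase, rose from 132, 131 and 134 to 230.1, 241 and 208 CPM and Srxn1, sulfiredoxin, from 23.2, 20.5 and 20.5 to 49.5, 54.4 and 40.7 CPM (log2 0.77 and 1.17).

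Sterol genes were among those already higher at 30 min. Of 27 genes of cholesterol synthesis and efflux, 11 were higher at 30 min (background 5.51%) and 16 at 4 h, when 2 were lower and the median was 0.30 (16 and 1 without replicate 3). Hmgcs1, an early enzyme of sterol synthesis, went from 193, 171 and 170.1 to 250.4, 271 and 236 CPM at 30 min and 263, 241 and 225 CPM at 4 h (log2 0.45 ± 0.07 (SE), FDR 2.27e-05). Msmo1, a later enzyme, rose from 102, 95.1 and 88.1 to 142, 132 and 123 CPM at 4 h (log2 0.48). Nr1h3, which encodes the oxysterol sensor LXRa, rose from 11.9, 9.25 and 8.16 to 32.2, 35.7 and 29.5 CPM (log2 1.74 ± 0.12 (SE), FDR 9.19e-12). The efflux genes Abca1 and Abcg1, picked after their values were seen, moved in opposite directions (log2 0.68 and -0.34, FDR 5.30e-05 and 4.27e-05). Srebf2, a master factor of sterol genes, was not called.

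In glycolysis and the hypoxia response, 9 of 24 were higher and 3 lower (8 and 2 without replicate 3). Slc2a6, a lysosomal hexose transporter gene, rose from 70.7, 75.2 and 75.7 to 131, 133 and 125 CPM (log2 0.81 ± 0.07 (SE), FDR 2.18e-10), while Ldha and Gapdh were not called. Of 26 inflammasome and cell death genes, 15 were higher and 2 lower (15 and 1 without replicate 3). The survival gene Bcl2a1b rose from 17.9, 20.0 and 16.3 to 63.2, 62.3 and 46 CPM, one of several near-identical copies whose separate counts are uncertain, and Casp4, the sensor of cytosolic lipopolysaccharide, from 9.17, 9.72 and 9.27 to 24.5, 22.8 and 20.6 CPM (log2 1.66 and 1.27). Of 22 heat shock and unfolded protein response genes, 4 were higher and 0 lower, 18.2% called higher against 11.9% of all genes. They were the chaperone gene Hspa1a, at 0.801, 1.1 and 0.918 CPM in the untreated libraries and 2.03, 2.31 and 2.07 CPM at 4 h (log2 1.18), and Ppp1r15a, Herpud1 and Atf4 (log2 0.41, 0.34 and 0.21). Of 30 cell cycle and replication genes, 7 were called, at 23.3% near the 23.5% of all genes: 2 were higher, the cyclins Ccnd1 and Ccnd2 (log2 0.26 and 0.43), and 5 lower, among them the helicase subunits Mcm6 and Mcm7 (log2 -0.12 and -0.18). The Mcm6 call was lost under 2 of 14 other settings, and Mki67 was not called.

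The study's own gene was not called in WT cells, and genes of its pathway changed in both directions. Rubcn, which encodes Rubicon, a protein of LC3-associated phagocytosis, stood at 95.6, 96.6 and 105 CPM in the untreated libraries and 89.8, 90.6 and 92.2 CPM at 4 h (log2 -0.12, FDR 0.0565). It was not called, but it was called lower under 7 of 14 other settings, with log2 values from -0.15 to -0.08. In KO cells the gene stood at 70.4, 72.2 and 75.8 CPM untreated and 71.3, 72 and 70.4 CPM with OVA at 4 h, below all 6 WT libraries. A count over the whole gene checks a deletion only as far as it removes the counted exons, and which exons the KO lacks is not given in the sources used here. Of 28 genes of autophagy and LC3-associated phagocytosis, 5 were higher and 8 lower in WT cells (17.9% and 28.6%, against 11.9% and 11.7% of all genes; 5 and 7 without replicate 3), with a median of -0.03. Besides the oxidase genes Cybb and Cyba, the rises were of Ncf4, another oxidase subunit, from 70.5, 76.6 and 75.6 to 104, 111 and 103 CPM, the autophagy receptor gene Sqstm1, from 246, 242 and 246 to 350.2, 359 and 336 CPM, and the receptor gene Optn. Map1lc3b, an LC3 gene, and Atg14, a subunit of the phosphatidylinositol 3-kinase complex, both picked after their values were seen, fell from 80.0, 83.4 and 78.7 to 69.3, 69.3 and 71.5 CPM and from 23.5, 25.5 and 24.5 to 20.4, 20.3 and 19.9 CPM. Of 25 lysosome and V-ATPase genes, 9 were higher and 2 lower (8 and 2 without replicate 3, 4 lower under scaling to total counts). Ctsz, a cathepsin, rose from 478, 479 and 474 to 569, 607 and 571 CPM and Npc1, the lysosomal cholesterol exporter gene, fell from 268, 269 and 278 to 224, 220.0 and 240.3 CPM (log2 0.29 and -0.25).

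Time separated the response into parts. Between 30 min and 4 h of OVA, 4396 genes (29.7%) differed, 2212 higher (14.9%) and 2184 lower (14.7%) at 4 h. Of the 1757 genes higher at 4 h than in untreated cells, 1244 were also higher than at 30 min, 10 were lower and 503 were not called different. Of the 1727 lower genes, 1078 were lower than at 30 min, 13 higher and 636 not called different. Both comparisons share the 4 h libraries, so these counts are a description of the course and not independent results. The 10 genes whose level at 4 h was between untreated and 30 min included Cxcl2, and the 13 in the other direction included Fosb. Tnf, the transcription factor gene Cebpb (6.7, 6.38 and 7.45 CPM in the untreated libraries and 16.4, 18.3 and 14.4 CPM at 4 h, 15.7, 17.5 and 19.9 CPM at 30 min) and Prdm1, which encodes Blimp-1 (6.97, 6.79 and 6.35 CPM in the untreated libraries and 16.5, 14.6 and 13.2 CPM at 4 h, 17.5, 14.9 and 14.1 CPM at 30 min), were not called different between 30 min and 4 h (FDR 0.564 for Cebpb and 0.56 for Prdm1); the last 2 genes were picked after their values were seen.

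The same treatment was read in the 6 KO libraries. OVA at 4 h changed 1722 genes (11.6%) in KO cells, 879 of them higher (5.94%) and 104 at least 2-fold higher (0.702%). Of the 288 2-fold rises of WT cells, 150 were called higher in KO cells, where the median log2 change of the 288 was 0.82 against 1.51 in WT cells. These genes were chosen by their WT values and include the 82 that lost their call without WT OVA 4 h replicate 3. The count and the pair of medians are therefore a description, and the part of that library in them was not tested. In the reverse selection, the 104 2-fold rises of KO cells had a median of 1.49 in KO and 1.57 in WT cells, and the WT rise was the larger in 60 of 104. Acod1, Cxcl10, Cxcl2 and Marco rose in KO cells by log2 5.91, 4.33, 4.45 and 4.09. Igfbp3 and Sfrp4, high in 1 WT library, stood at log2 0.42 and -0.16 in KO cells. Interferon-stimulated genes were higher in 39 of 42 in KO cells too, with a median of 0.83.

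The test of the difference between the genotypes' responses called 6 of 14808 genes (0.0405%), each with a smaller rise in KO cells. Mmp14, a membrane-bound metalloproteinase, went from 40.3, 39.9 and 41.6 to 119, 127 and 133 CPM in WT cells and from 59.9, 54.9 and 55.6 to 111, 101 and 104 CPM in KO cells (difference of log2 responses -0.74 ± 0.09 (SE), FDR 1.49e-04). Its untreated level was already higher in KO cells, and its 4 h level lower, differences that were not tested. Sod2 went to 80.8, 79.9 and 82 CPM in KO cells from 56.3, 55.3 and 54.1 CPM (difference -0.34, FDR 0.00266). Rasgef1b, an exchange factor for Ras-family GTPases, went to 96.7, 93.9 and 84.6 CPM in WT and 63.4, 57.3 and 65.3 CPM in KO cells (difference -0.68, FDR 0.00127). Ptges, whose levels were all under 3 CPM, went from 0.401, 0.647 and 0.531 to 2.62, 2.85 and 2.78 CPM in WT cells. In KO cells it went from 1.2, 1.29 and 0.942 to 1.97, 1.64 and 1.68 CPM (difference -1.74, FDR 0.00821). As for Mmp14, its untreated level was higher and its 4 h level lower in KO cells, differences that were not tested. Ehd1, which recycles endosomes, and the syndecan gene Sdc4 gave differences of -0.42 and -0.34 (FDR 0.022 and 0.0342). The number of calls ranged from 3, without KO untreated replicate 2, to 15, without WT OVA 4 h replicate 3, and was 24 with DESeq2. At an unadjusted p under 0.05, 1098 genes passed.

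**Figure D5:**
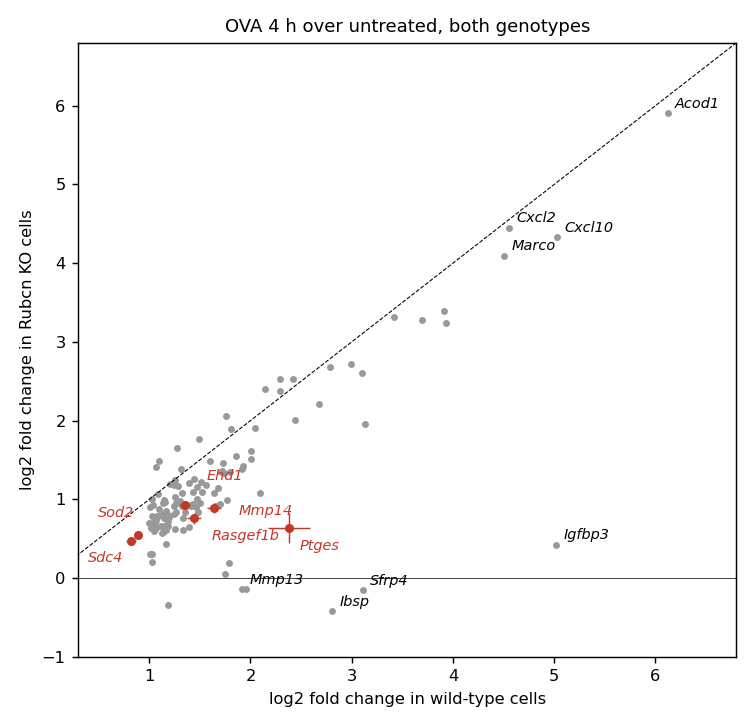
Log2 fold change of OVA 4 h over untreated cells in WT (x axis) and Rubcn KO cells (y axis) for genes called at least 2-fold higher in WT cells at 5 CPM or more (grey) and the 6 genes whose responses differed between genotypes (red, bars 1 SE); the dashed line marks equal responses. Acod1 and Cxcl2 lie close to it, the 6 red genes lie below it, and Igfbp3, Sfrp4, Ibsp and Mmp13 (the last 2 labelled after their values were seen), which are highest in WT OVA 4 h replicate 3, lie near 0 in KO cells.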

How the data were processed

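RNA of 30 libraries was sequenced (TruSeq RNA Library Prep Kit v2, per the labels' protocols). The authors deposited raw read counts for every gene as 1 table, on mm10; the submitters' processing notes name STAR 2.5, Subread, featureCounts 1.5.0-p1 and DESeq2. The sources used here give no annotation, strand setting or treatment of shared reads, so overlapping, antisense and near-identical genes are uncertain. No count column was left unused (0).

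Groups came from sample titles. One edgeR 4.0.16 model (R 4.3.3) fitted to all 30 libraries, with group means, TMM and filterByExpr by group, gave two-sided quasi-likelihood tests. SE is the log2 fold change divided by the root of F. Libraries of the 2 compared groups were checked pairwise within each group, and none was a duplicate.

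The members, the 23 pathway and 11 marker lists and the tests were chosen with earlier results of these data known. Named by rule were Rubcn, the 12 largest rises and falls at FDR under 0.05 with 5 CPM or more and no overlap, per pathway list up to 5 called genes by smallest p and 2 uncalled by highest CPM, and per marker list 3 by CPM; some genes the rule names are not reported here.

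Alternatives were DESeq2 size factors, total counts, no filter, 5 CPM in 3 libraries, the compared groups alone, DESeq2 1.42.0, a replicate block and each library left out.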

Additional observations from a re-analysis of the deposited data

Results flagged for a closer look

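In 6 genes the response to OVA at 4 h differed between KO and WT cells by the test of that difference (edgeR's quasi-likelihood F test, Benjamini-Hochberg adjustment over 14808 genes). All 6 rose less in KO cells: the difference of log2 responses was -0.74 for Mmp14, -0.68 for Rasgef1b, -0.34 for Sod2, -1.74 for Ptges, -0.42 for Ehd1 and -0.34 for Sdc4. Over 20 other settings, Mmp14, Rasgef1b and Sod2 were called in all, Ptges in all but 2, Ehd1 in all but 8 and Sdc4 in all but 12.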

How the results depend on the processing

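The count of called genes, and of those higher or lower, stayed within 1.5 times under every alternative run: 3535 with DESeq2 size factors, 3586 with total counts (42.8% of them higher, against 50.4%), 3210 without a filter, 3412 at 5 CPM in 3 libraries, 2932 in a fit of the compared groups alone and 3461 with DESeq2. Leaving out 1 library gave 2594 to 3400 called, 1355 to 1742 higher, 1239 to 1658 lower, 227 to 314 at least 2-fold higher and 14 to 23 at least 2-fold lower. For 4 h against 30 min it gave 3147 to 3932, with 1612 to 1969 higher and 1535 to 1963 lower. Genes at least 2-fold higher numbered 288 in the main fit and 205 in the compared groups alone. They numbered 218 with the replicate block there and 241 with DESeq2. These fits tested 13700, 13700 and 13744 genes, against 14808 in the main fit. At 5 CPM in 3 libraries, where 10657 genes were tested, there were 173 such rises. Genes at least 2-fold lower numbered 0 at that filter, 11 in the compared groups alone, 9 with the replicate block there and 12 with DESeq2. The genotype difference called 11 genes without a filter, 10 at 5 CPM, 24 with DESeq2 and 3 to 15 with 1 library left out; the cause was not tested.

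Same-numbered libraries of the 2 groups deviated together weakly (correlations 0.22, 0.06 and 0.14), and the main fit did not take the numbers as pairs. With the replicate block within each genotype, 3636 genes were called, against 3484 without it, and the genotype difference called 12, against 6. In the compared groups alone these were 4164 and 14 with the block, against 2932 and 8 without it. No called gene among those named turned its direction. Of the counts per gene list under these settings, 852 stayed within 1.5 times the main count and 100 did not. Of the 82 genes at least 2-fold higher that lost their call without WT OVA 4 h replicate 3, 64 had a mean under 1 CPM. The part of depth in this was not tested.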

Other observations

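Some genes outside the lists, picked after their values were seen, had large rises in all 3 OVA libraries. C3, the central complement component, went from 31.5, 29.6 and 34.6 to 132, 137 and 117 CPM (log2 2.01 ± 0.15 (SE), FDR 2.88e-11) and was at 32, 33.9 and 32.3 CPM at 30 min. Saa3, an acute phase protein gene, went from 0.134, 0.453 and 0.204 to 4.77, 3.6 and 2.57 CPM (log2 3.76 ± 0.44 (SE), FDR 2.08e-07), and Fpr2, a receptor for formyl peptides and serum amyloid A, from 1.2, 1.47 and 1.2 to 11, 11.3 and 8.65 CPM (log2 2.99 ± 0.17 (SE), FDR 1.74e-13). Ikbke, a kinase upstream of IRF3 and IRF7, went from 19.6, 18.3 and 17.3 to 60.4, 66.2 and 56.9 CPM (log2 1.73 ± 0.07 (SE), FDR 1.05e-16). Src, a tyrosine kinase gene, and Cdkn1a, which encodes the cell cycle inhibitor p21, rose by log2 1.43 and 1.01.

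Osteoclast and bone genes, also picked after their values were seen, were high in WT OVA 4 h replicate 3. Acp5, the tartrate-resistant phosphatase of osteoclasts, stood at 22, 25.7 and 90.6 CPM in replicates 1, 2 and 3 and at 14.3, 12.7 and 13.5 CPM in untreated cells. Acp5 stayed called higher without replicate 3 (log2 0.82, FDR 0.00644), whereas Mmp13, Mmp9, Ibsp and Mgp did not. Mmp13, a collagenase, stood at 21.6, 18.7 and 70.3 CPM against 12.9, 9.42 and 7.39 CPM, and Mmp9, a gelatinase, at 27.1, 27.1 and 84.7 CPM against 23.6, 20.9 and 24 CPM. Ibsp, a bone matrix sialoprotein gene, stood at 4.29, 3.99 and 24.6 CPM against 1.85, 1.4 and 1.53 CPM. Mgp, an inhibitor of calcification, stood at 2.9, 2.55 and 22.6 CPM against 2.63, 2.46 and 2.33 CPM.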
